A study of Arabidopsis thaliana with 15 samples.

Results

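The LHCB1 and LHCB2 genes of Arabidopsis thaliana encode the most abundant chlorophyll a/b-binding proteins of photosystem II. They were taken by locus: LHCB1.1 (AT1G29920), LHCB1.2 (AT1G29910), LHCB1.3 (AT1G29930), LHCB1.4 (AT2G34430), LHCB1.5 (AT2G34420), LHCB2.1 (AT2G05100), LHCB2.2 (AT2G05070) and LHCB2.3 (AT3G27690). These are 8 of the 33602 loci counted, 5 of LHCB1 and 3 of LHCB2. All 8 stood in each of the 3 count tables and passed the filter on low counts in every fit.

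LHCB1 and LHCB2 proteins assemble into the trimers of LHCII, the antenna that gathers light for photosystem II and is phosphorylated when light energy is redistributed towards photosystem I. LHCB1 makes up most of the trimers, and LHCB2 takes part in the complex that photosystem I forms with LHCII. The genes lie in the nucleus, are induced by light and driven by the circadian clock, and their transcripts are among the most abundant in green tissue; the precursor proteins are made in the cytosol and imported into chloroplasts.

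Transcripts were counted in 15 libraries of seedlings labelled 2 weeks old, grown on Murashige and Skoog medium at 22 °C in constant white light (50 µmol/m2/s). In the profiling experiment, RNA of whole seedlings was purified on a column from the wild type, Col-0 (n = 4), and from plants labelled eds4 -/- (n = 3). In the distribution experiment, RNA was extracted with phenol from whole seedlings ("total RNA") and from nuclei sorted by flow cytometry, each for Col-0 and for eds4 -/- (n = 2 per group). EDS4 (AT5G51200) is the gene of NUP205, part of the inner scaffold of nuclear pores. The labels name neither the eds4 allele nor its background, and do not say how many plants a replicate holds or whether replicates grew separately. The p-values therefore measure the spread among these libraries, which may be technical.

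The LHCB1 loci form 2 clusters. LHCB1.2 (TAIR10, chr1:10472280-10473299, minus strand), LHCB1.1 (chr1:10474784-10475959, minus) and LHCB1.3 (chr1:10478005-10479048, plus) lie in a row, with 1484 and 2045 bases between them. LHCB1.5 (chr2:14522524-14523568, minus) and LHCB1.4 (chr2:14524756-14525763, plus) are divergent neighbours with 1187 bases between them. LHCB2.2 (chr2:1799234-1800392, minus) and LHCB2.1 (chr2:1823240-1824425, minus) are 22847 bases apart, and LHCB2.3 (chr3:10255947-10257011, plus) stands alone. In RefSeq each LHCB1 locus is 1 exon and each LHCB2 locus is 2. Within LHCB1 the coding regions shared 86.7 to 96.4% of aligned bases, within LHCB2 84.4 to 96.6%, and between the families 69.7 to 73.2%. LHCB2.1 and LHCB2.2 were the most alike pair.

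The coding stretches below show how close the copies are and where reads can tell them apart. They are the gap-free 60 aligned bases that vary most, with 27 variable positions, from the coding strand of TAIR10.1 (RefSeq). Capitals mark bases that differ from LHCB1.3.
LHCB1.3: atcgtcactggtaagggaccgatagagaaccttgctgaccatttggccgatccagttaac
LHCB1.1: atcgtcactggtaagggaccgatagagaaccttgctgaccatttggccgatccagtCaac
LHCB1.2: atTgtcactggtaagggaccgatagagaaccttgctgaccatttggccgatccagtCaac
LHCB1.4: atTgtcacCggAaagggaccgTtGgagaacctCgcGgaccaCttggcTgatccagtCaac
LHCB1.5: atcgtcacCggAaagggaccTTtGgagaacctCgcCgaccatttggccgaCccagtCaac
LHCB2.1: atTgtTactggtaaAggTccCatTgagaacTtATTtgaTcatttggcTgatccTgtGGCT
LHCB2.2: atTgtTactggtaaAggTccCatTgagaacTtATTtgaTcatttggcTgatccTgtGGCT
LHCB2.3: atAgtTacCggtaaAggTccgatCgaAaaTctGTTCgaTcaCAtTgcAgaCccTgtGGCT

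In this stretch LHCB1.1 differed from LHCB1.3 at 1 base, LHCB1.2 at 2 and LHCB2.3 at 23, and LHCB2.1 was identical to LHCB2.2. The stretch was not chosen to set close copies apart. Over whole coding regions LHCB1.1 shared 96.1% of aligned bases with LHCB1.3, and LHCB2.1 shared 96.6% with LHCB2.2. Over the transcribed parts of the loci, 30.4% of the 50-base runs of LHCB2.2 and 29.3% of those of LHCB2.1 also occurred in another member. The shares were 23.0% for LHCB1.1, 20.2% for LHCB1.3, 18.0% for LHCB1.4, 17.3% for LHCB1.5, 12.9% for LHCB1.2 and 0% for LHCB2.3. How reads with several matches were counted is not given in the sources used here, so the split of counts among the LHCB1 copies, and between LHCB2.1 and LHCB2.2, is uncertain. LHCB2.3 is the member whose counts share no such run.

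Upstream sequence was read because several regulators with known binding letters were among the genes that changed in the profiling experiment. The 250 bases before each deposited locus were searched on both strands for 6 motifs, none of which contains another. The CCA1 binding site, first described in an LHCB1 promoter and spelled AAAAATCT or AACAATCT, was found in 3 of 8 members and in 7.89% of the 32834 windows searched. The letters CCAATC, reported for GLK factors, were found in 5 of 8 members, among them all 3 LHCB2 genes, and in 11.02% of windows. The G-box, CACGTG, which bZIP and bHLH factors bind, was found in LHCB2.3 alone of the members and in 6.77% of windows. The I-box of light-regulated promoters, GATAAG, was found in 2 members and in 13.1% of windows. The evening element of clock-regulated promoters, AAAATATCT, was found in 0 members and in 2.12% of windows. The TATA box, TATAAA, at which transcription complexes assemble, was found in 4 members and in 46.0% of windows. A match is a description of the letters and not a bound site. For 7 of 8 members the RefSeq transcript begins before the deposited locus, so only bases outside it, or 30-base sites, are shown. The transcript takes in the last 203 of the 250 window bases of LHCB1.2, the last 120 of LHCB1.3 and the last 149 of LHCB1.4. The CCA1 binding sites at -107 to -100 of LHCB1.3 and -139 to -132 of LHCB1.4 thus lie inside it. That at -125 to -118 of LHCB1.3 crosses its start. Both I-boxes lie inside the transcript, as do all TATA boxes except that of LHCB1.5. The CCA1 binding sites, in capitals, follow for LHCB1.1 (chr1:10476040-10476069, minus strand, positions -110 to -81 before the locus), LHCB1.3 (chr1:10477876-10477905, plus, -129 to -100, with 2 sites) and LHCB1.4 (chr2:14524595-14524624, plus, -161 to -132, with the later of its 2 sites; the other, at -167 to -160, is not shown whole).
LHCB1.1: taagactactaaacgataaaacAAAAATCT
LHCB1.3: aacaAACAATCTaaaccccaaaAAAAATCT
LHCB1.4: ctgatgccagctcgacaagacaAAAAATCT

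The upstream stretches of the LHCB2 genes are shown because all 3 genes fell in eds4 profiling seedlings and all 3 hold CCAATC. Among LHCB1 genes, LHCB1.5 fell and holds CCAATC, and LHCB1.1, LHCB1.2 and LHCB1.4 fell without it in their windows. LHCB1.3 holds it, and its lower estimate (-0.56, SE 0.14) did not pass (edgeR adjusted p = 0.113). Whether the letters bear on the fall was not tested. Capitals mark the G-box and CCAATC; a second CCAATC of LHCB2.1, from position -59, runs into the RefSeq transcript and is not shown whole. They are LHCB2.1 (TAIR10.1, chr2:1824481-1824675, minus strand), LHCB2.2 (chr2:1800473-1800642, minus) and LHCB2.3 (chr3:10255697-10255905, plus), each from position -250.
LHCB2.1: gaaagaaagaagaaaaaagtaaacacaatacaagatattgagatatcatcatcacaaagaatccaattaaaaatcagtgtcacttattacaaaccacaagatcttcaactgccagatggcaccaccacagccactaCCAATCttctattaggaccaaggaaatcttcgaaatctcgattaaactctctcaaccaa
LHCB2.2: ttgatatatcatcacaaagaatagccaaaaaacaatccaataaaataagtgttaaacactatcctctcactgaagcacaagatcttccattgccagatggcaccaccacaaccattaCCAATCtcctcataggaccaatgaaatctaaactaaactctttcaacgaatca
LHCB2.3: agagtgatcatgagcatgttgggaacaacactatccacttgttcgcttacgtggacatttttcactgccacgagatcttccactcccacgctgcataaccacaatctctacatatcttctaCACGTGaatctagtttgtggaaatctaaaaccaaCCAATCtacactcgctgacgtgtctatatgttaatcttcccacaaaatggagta

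In the windows of 250 bases, the longest run of letters shared by LHCB2.1 and LHCB2.2 was 20 bases, against 10 bases between LHCB2.2 and LHCB2.3. Of all pairs of members, LHCB1.1 and LHCB1.2 shared the longest run, 21 bases.

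Library totals ran from 37277300 to 51059295 counts in the profiling experiment and from 12393243 to 31745372 in the distribution experiment, lowest in nuclei. Counts were scaled to CPM, counts relative to library sizes adjusted by the trimmed mean of M values, within each fit's experiment. EDS4 stood at 63.8 to 84.3 CPM in wild type and 31.9 to 42.2 in eds4 profiling seedlings (log2 difference -1.05, SE 0.13, edgeR adjusted p = 0.0101), and at 81.1 and 95.8 against 29.1 and 41.3 CPM in total RNA (-1.33, SE 0.26, adjusted p = 1). In nuclei the locus did not set the genotypes apart, with 48.5 and 65.6 CPM in wild type and 59.6 and 62.5 in the libraries labelled eds4, so these are called nuclei labelled eds4. Wild type nuclei replicate 2 stood apart, with 11.2% of counts on nuclear rRNA loci and 4.21% on chloroplast genes, against at most 2.79% and 2.05% in the other libraries.

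The 8 loci took 2.44 to 3.29% of all counts in wild type profiling seedlings and 1.58 to 1.75% in eds4. Their share was 5.48 and 5.71% in wild type total RNA, 4.24 and 5.80% in eds4 total RNA, 0.982 and 1.81% in wild type nuclei, and 0.904 and 1.09% in nuclei labelled eds4.

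LHCB1.3 was the most abundant member per kilobase in all 15 libraries. In wild type profiling seedlings LHCB1.3 stood at 10351 ± 1241 CPM per kb of effective length (SD, n = 4) and LHCB1.5 at 4718 ± 657. LHCB1.2 followed at 3870 ± 457 CPM per kb, then LHCB1.1 at 3296 ± 443 and LHCB2.1 at 2336 ± 330. LHCB2.2 stood at 1801 ± 331 CPM per kb, LHCB1.4 at 1138 ± 220 and LHCB2.3 at 928 ± 182. The order was the same in all 4 libraries, although the ranges of neighbours overlapped between libraries except for LHCB1.3 over LHCB1.5 and LHCB2.2 over LHCB1.4. In eds4 profiling seedlings the order of the means was the same, from 7042 ± 693 for LHCB1.3 to 315 ± 49.1 CPM per kb for LHCB2.3 (SD, n = 3). LHCB2.3 was the lowest member in 13 of 15 libraries, the exceptions being both libraries of wild type nuclei.

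**Figure D1:**
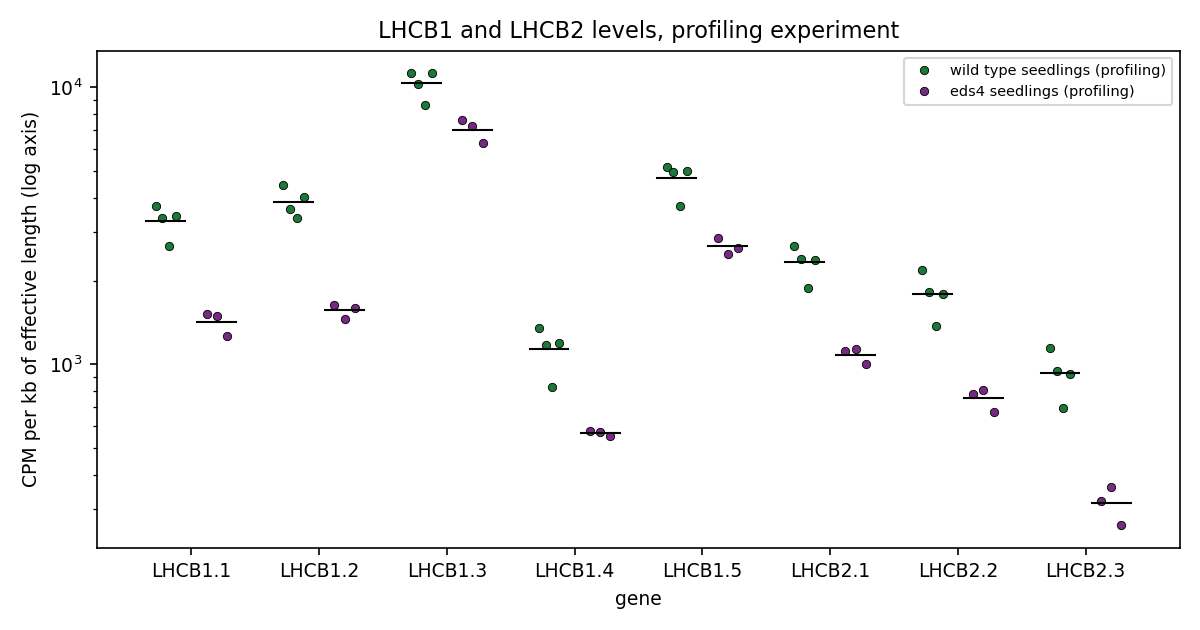
Level of each gene in CPM per kb of effective length (log axis) in the profiling experiment. Each point is 1 library (4 wild type, 3 eds4) and each short line a group mean. Every eds4 point lies below every wild type point of the same gene, and the group means lie furthest apart for LHCB2.3.

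The comparison of eds4 with wild type seedlings asked which transcripts differ in the mutant. Transcripts of 7 of 8 members fell in eds4, and 0 rose. Across all 22202 loci tested 1.34% passed (0.581% lower, 0.757% higher), and 16% had an unadjusted p under 0.05. The median log2 difference over the 8 members was -1.16, against 8.6e-05 over all loci, and the groups did not overlap for any member; 6.93% of loci were lower and 8.71% higher without overlap. The estimate was largest for LHCB2.3 and smallest for LHCB1.3.

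Among the LHCB2 genes, LHCB2.3 stood at 1080, 896, 660 and 876 CPM in wild type replicates 1 to 4 and at 305, 341 and 249 CPM in eds4. Every eds4 library was below every wild type library, the closest pair being wild type replicate 3 and eds4 replicate 2. The log2 difference was -1.56 (SE 0.18, edgeR quasi-likelihood adjusted p = 0.00771, Benjamini-Hochberg over all loci), which leaves 34.0% of the wild type level. LHCB2.1 stood at 2947, 2648, 2074 and 2617 CPM in wild type and 1231, 1248 and 1104 in eds4. Its log2 difference was -1.11 (SE 0.13, edgeR adjusted p = 0.00871). LHCB2.2 stood at 2329, 1945, 1468 and 1916 CPM in wild type and at 830, 860 and 714 in eds4, a log2 difference of -1.26 (SE 0.16, edgeR adjusted p = 0.0103). For all 3 genes wild type replicate 3 was the lowest of its group.

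Among the LHCB1 genes of the chromosome 1 cluster, LHCB1.2 stood at 4522, 3720, 3450 and 4097 CPM in wild type and at 1669, 1491 and 1634 in eds4. Its log2 difference of -1.30 (SE 0.12, edgeR adjusted p = 0.00368) was the one that remained past the threshold when each of the 7 libraries was left out in turn. LHCB1.1 stood at 4376, 3962, 3144 and 4024 CPM in wild type and 1790, 1760 and 1488 in eds4, a log2 difference of -1.21 (SE 0.14, edgeR adjusted p = 0.00771). LHCB1.3, the neighbour on the opposite strand, stood at 11735, 10778, 8984 and 11729 CPM in wild type and 7958, 7548 and 6551 in eds4. Its groups did not overlap either, but its log2 difference of -0.56 (SE 0.14) did not pass after adjustment over all loci (adjusted p = 0.113, unadjusted p = 0.00368 in edgeR). LHCB1.3 made up 34.8 to 37.0% of the counts of the 8 loci in wild type and 43.5 to 45.9% in eds4.

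In the chromosome 2 pair, LHCB1.4 stood at 1362, 1185, 836 and 1205 CPM in wild type and at 581, 575 and 557 in eds4, a log2 difference of -1.01 (SE 0.16, edgeR adjusted p = 0.0233). LHCB1.5 stood at 5406, 5189, 3911 and 5214 CPM in wild type and at 2983, 2627 and 2748 in eds4, a log2 difference of -0.82 (SE 0.14, edgeR adjusted p = 0.0307). Wild type replicate 3 was again the lowest, as for all 8 members.

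Because reads of close copies may be split, the copies were also summed. The log2 difference was -0.81 for LHCB1.1, LHCB1.2 and LHCB1.3 together (SE 0.14, adjusted p = 0.0404), -0.86 for LHCB1.4 and LHCB1.5 (SE 0.14, adjusted p = 0.0319) and -1.17 for LHCB2.1 and LHCB2.2 (SE 0.15, adjusted p = 0.0106), all in edgeR. Each of the 3 sums fell.

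Without eds4 replicate 1, 1 member passed (LHCB1.2), without eds4 replicate 2, 2 (LHCB1.2 and LHCB2.3), and a fit of all 11 whole-seedling libraries with a term for experiment left 1 (LHCB1.4). Without wild type replicate 1, 2 or 4, LHCB1.4 and LHCB1.5 did not pass and 5 members did. In whole seedlings fewer cells that express these genes and less RNA per cell cannot be told apart; of 7 mesophyll markers 0 passed the test, and their summed level was 40919 to 48220 CPM in wild type and 35161 to 53224 in eds4. Of 7 epidermis markers 1 was lower and of 5 phloem markers 1 higher; among markers of dividing cells, xylem, endodermis and stele, guard cells and root hairs 0 passed.

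**Figure D2:**
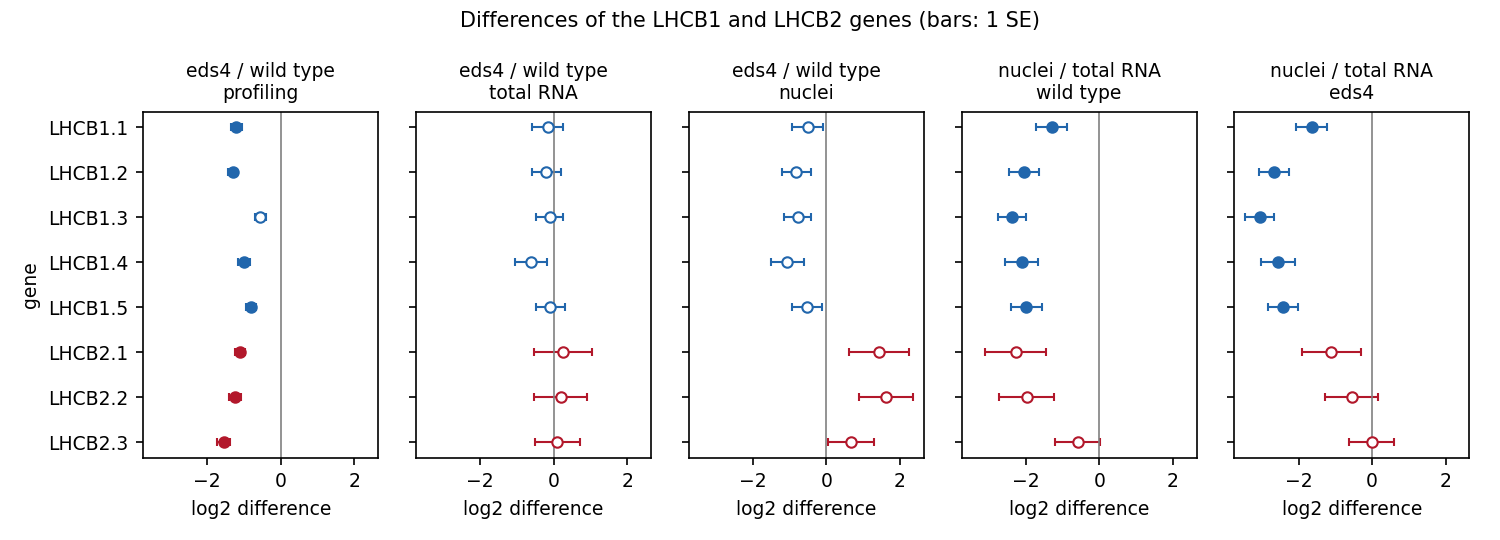
Log2 difference (bars: 1 SE) of each gene in 5 comparisons; blue marks LHCB1, red LHCB2, and filled points have an edgeR adjusted p under 0.05. There are 7 filled points left of 0 in profiling seedlings and 5 in each comparison of nuclei with total RNA, where they are the LHCB1 genes.

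The other antenna genes gave a mixed picture in the same seedlings. Of 13 genes for minor photosystem II antennae and photosystem I antennae, 5 fell and 0 rose (median log2 difference -0.61): LHCA4 (-1.08, SE 0.13), LHCA1 (-1.13, SE 0.14), LHCA3 (-0.83, SE 0.12, named after its values were seen), LHCB4.2 (-0.87, SE 0.13) and LHCB3 (-1.15, SE 0.15), the gene of the third trimer subunit. Of 8 genes for import, phosphorylation and energy dissipation of the antenna, 0 passed. Of 6 light-harvesting-like genes, ELIP1 (0.98, SE 0.13, edgeR adjusted p = 0.0137) and ELIP2 (0.66, SE 0.12, adjusted p = 0.0478) rose; they encode stress-induced relatives of the antenna proteins. Their relatives OHP1, OHP2, LIL3.1 and LIL3.2 had log2 differences from -0.22 to 0.09 and did not pass. Of 18 genes of chlorophyll metabolism, CAO, which makes chlorophyll b, fell (-0.88, SE 0.12, edgeR adjusted p = 0.0137). HCAR, which acts at a later step of the route from chlorophyll b back to chlorophyll a, rose (0.66, SE 0.10, edgeR adjusted p = 0.0189).

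Of 17 regulators of LHCB transcription, 16 were tested, 6 fell and 1 rose. CCA1, the clock transcription factor first found by its binding to an LHCB1 promoter, fell by 1.11 on the log2 scale (SE 0.10, edgeR adjusted p = 0.00273). The clock coactivators LNK1 (-1.28, SE 0.13) and LNK2 (-1.38, SE 0.14) fell, and HY5, a light-signalling bZIP factor, rose (0.72, SE 0.08, adjusted p = 0.00635). Of the GLK factors that drive photosynthesis genes, named after their values were seen, GLK2 fell (-0.37, SE 0.07, adjusted p = 0.0426) and GLK1 had -0.17 (SE 0.13, adjusted p = 0.579). Whether these differences bear on the members was not tested.

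Of the neighbouring loci that could be tested 0 passed. CARB, 69 bases from the chromosome 1 cluster, had a log2 difference of -0.13 and NRPA2, 73 bases from its other side, -0.28 (edgeR adjusted p = 0.528 and 0.423). AT2G34400 had 0.19 and AGL29 -0.07 beside the LHCB1.5 and LHCB1.4 pair (adjusted p = 0.656 and 0.921). AT3G27700, next to LHCB2.3, had -0.12 (adjusted p = 0.635), and the nearest loci of LHCB2.1 and LHCB2.2, AT2G05060, AT2G05080, AT2G05090 and AT2G05110, and AT3G27680, were too low to test.

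The loci whose pattern over the 11 whole-seedling libraries was most like that of LHCB2.3 were ABA1 and CLA1, of carotenoid and isoprenoid synthesis, HDR, the last enzyme of the plastid isoprenoid pathway, ABCF5 and ADS1. Within the 7 profiling libraries, their Pearson r with LHCB2.3 was 0.970, 0.920, 0.986, 0.962 and 0.951 in that order. They were picked from 18403 loci by r over the 11 libraries, which include these 7, so high values partly follow from the choice. The loci most like summed LHCB1 were LHCB4.1, PSAE-2 and PSAL, which encode a minor antenna protein and subunits of photosystem I, and AT1G21500 and AT1G73470, with r of 0.96 to 0.98. Of these 10 loci HDR fell (-0.47, edgeR adjusted p = 0.0258); the other adjusted p were 0.0608 or more.

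The balance between the families was examined through ratios of counts, which need no scaling between libraries. LHCB1 counts were 4.31 to 4.86 times LHCB2 counts in wild type and 5.72 to 6.33 times in eds4, a difference of 0.40 on the log2 scale. The ratio of LHCB2.3 to LHCB2.1 plus LHCB2.2 was 0.186 to 0.205 in wild type and 0.137 to 0.162 in eds4, a log2 difference of -0.39. Both had a two-sided exact permutation p = 0.0571 over 35 arrangements, and an adjusted p of 0.286 over 10 comparisons of ratios. This test doubles the smaller tail, and in that form 0.0571 is the smallest p that 4 against 3 libraries can give. Neither passed. With all 11 whole-seedling libraries, permuted within experiment and counted by the absolute difference instead, exact permutation p was 0.557 and 0.329.

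**Figure D3:**
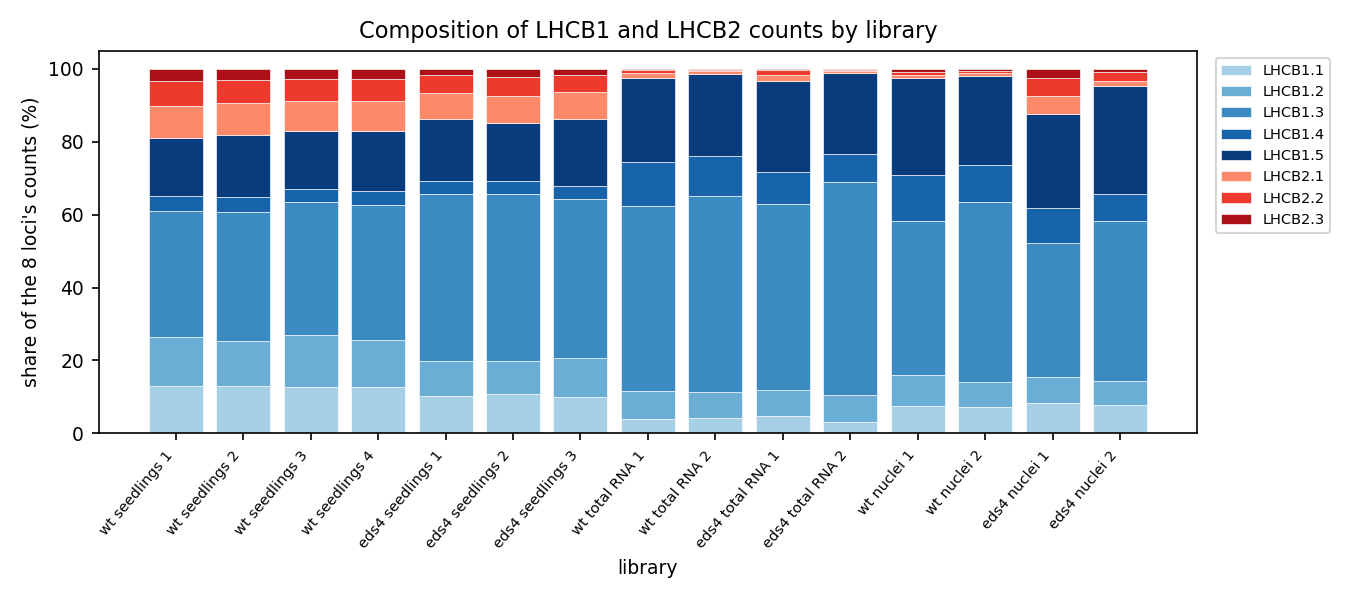
Share of each gene in the counts of the 8 loci (%), by library. Blue shades are LHCB1 and red shades LHCB2; LHCB1.3 takes 34.8 to 37.0% in wild type and 43.5 to 45.9% in eds4 profiling seedlings, and LHCB2 is a thin band in total RNA of the distribution experiment.

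Wild type whole seedlings of the 2 experiments held different balances of these genes. LHCB2.1 averaged 2572 ± 364 CPM (SD, n = 4) in profiling and 519 ± 253 (SD, n = 2) in distribution seedlings, LHCB2.2 1915 ± 352 and 428 ± 185, and LHCB2.3 878 ± 172 and 146 ± 32.5. LHCB1.4 went the other way, at 1147 ± 222 and 6896 ± 228 CPM, as did LHCB1.3 at 10806 ± 1295 and 31552 ± 1777 and LHCB1.5 at 4930 ± 686 and 13800 ± 7.85. LHCB1.2 overlapped, at 3947 ± 466 and 4443 ± 59.8 CPM, and LHCB1.1 was lower in distribution seedlings, at 3876 ± 521 and 2483 ± 137. Apart from LHCB1.2 the ranges did not overlap. The tables were scaled separately and the extraction differed, so experiment and extraction cannot be told apart and no test was made.

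Total RNA of eds4 was compared with that of wild type as a second look at the genotype. In total RNA 0 of 8 members passed, and 0 had an unadjusted edgeR p under 0.05; 0.00465% of all loci passed (0.00465% lower, 0% higher), and 2.82% had such a p. LHCB2.3 stood at 169 and 123 CPM in wild type and 237 and 74.9 in eds4, LHCB2.1 at 698 and 341 against 1056 and 189, and LHCB2.2 at 559 and 297 against 807 and 172. In each case the 2 eds4 libraries lay on either side of the wild type libraries. The log2 differences were 0.10 (SE 0.62), 0.26 (SE 0.79) and 0.19 (SE 0.72).

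LHCB1.4 stood at 7057 and 6735 CPM in wild type and 5740 and 3303 in eds4 total RNA, a log2 difference of -0.61 (SE 0.44, edgeR adjusted p = 1). It was the only member whose groups did not overlap, and 20.7% of loci were lower and 17.2% higher in that way. LHCB1.3 stood at 30295 and 32809 against 32967 and 25724 CPM, and the other LHCB1 genes had log2 differences from -0.20 to -0.09 (SE 0.39 to 0.41). The genotype effect itself was then compared between the experiments. LHCB1.2 differed by -1.14 on the log2 scale (SE 0.25), LHCB2.3 by -1.69 (SE 0.53) and the others by -1.49 to -0.43. Of 8 members 0 passed in edgeR and 5 had an unadjusted p under 0.05, against 0.00888% (0.00444% in each direction) and 9.39% of all loci; the smallest adjusted p was 0.228.

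**Figure D4:**
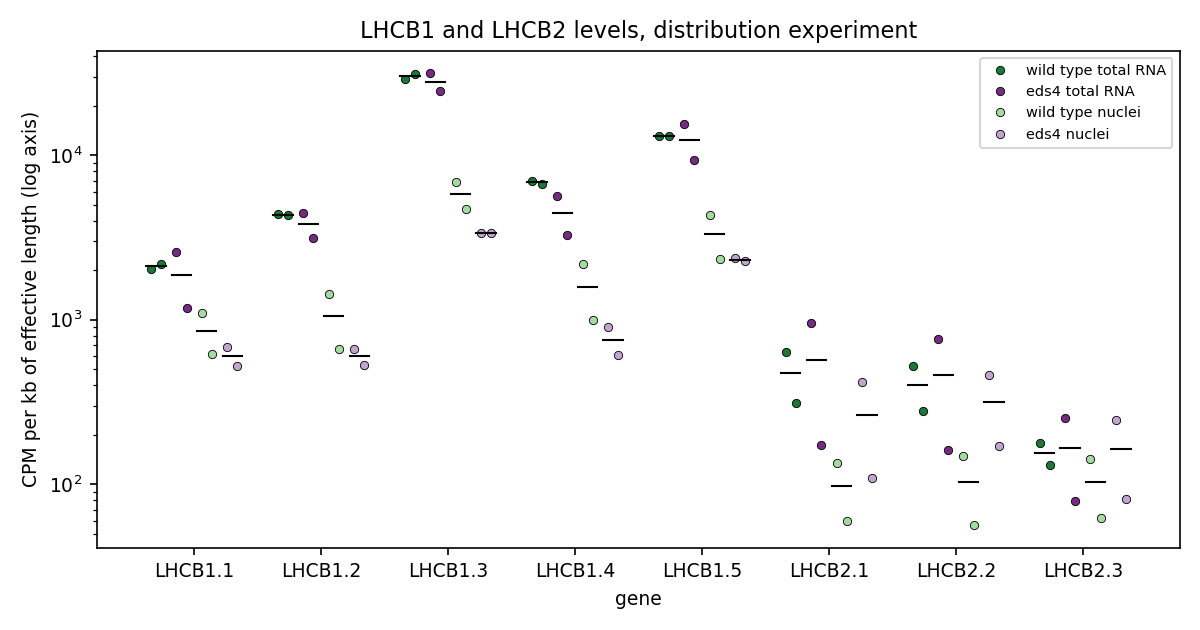
Level of each gene in CPM per kb (log axis) in the distribution experiment; each point is 1 of 2 libraries per group and each short line a group mean. LHCB1 points of nuclei lie below those of total RNA of the same genotype; LHCB2 points do so for LHCB2.1 and LHCB2.2 in wild type, and the other LHCB2 groups overlap.

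Nuclei were compared with total RNA to ask how transcripts divide between nucleus and whole cell; values are relative to the typical locus. In wild type 5 of 8 members, all LHCB1, were lower in nuclei and 0 higher, while 30.6% of all loci passed (15.6% lower, 15.1% higher) and 42.2% had an unadjusted p under 0.05. LHCB1.3, the most abundant, stood at 30295 and 32809 CPM in total RNA and 7237 and 4906 in nuclei. Both nuclear libraries were far below both total RNA libraries, with a log2 difference of -2.38 (SE 0.38, edgeR adjusted p = 0.00165). LHCB1.4 fell from 7057 and 6735 to 2187 and 1001 CPM (-2.11, SE 0.45) and LHCB1.5 from 13794 and 13805 to 4548 and 2440 (-1.98, SE 0.41). LHCB1.2 fell from 4485 and 4400 to 1470 and 682 CPM (-2.05, SE 0.41). LHCB1.1 fell least among LHCB1, from 2386 and 2580 to 1293 and 729 CPM (-1.30, SE 0.42, adjusted p = 0.0413). The groups of these 5 did not overlap; 35.4% of loci were lower and 33.1% higher without overlap. LHCB1.1 did not pass without total RNA replicate 1 or 2 of the wild type, or without wild type nuclei replicate 2, the library with the high rRNA share; without the latter its difference was -0.94 (adjusted p = 0.198) and the other 4 passed.

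The LHCB2 genes did not pass in this fit. LHCB2.1 stood at 698 and 341 CPM in total RNA and 149 and 65.5 in nuclei (-2.28, SE 0.83, edgeR adjusted p = 0.0622). LHCB2.2 stood at 559 and 297 against 158 and 59.7 CPM (-1.97, SE 0.75, adjusted p = 0.0702). Both had nuclei below total RNA in every library, with estimates in the range of those of LHCB1 and wider errors. LHCB2.1 and LHCB2.2 passed, as lower, without any 1 of the 4 eds4 libraries, with no filter on low counts, or when the wild type libraries were fitted alone, which gave 7 members lower. LHCB2.3 stood at 169 and 123 against 135 and 58.6 CPM, and its groups overlapped (-0.59, SE 0.62, adjusted p = 0.501). The ratio of LHCB2.3 to LHCB2.1 plus LHCB2.2 was 0.135 and 0.193 in total RNA and 0.441 and 0.468 in nuclei (exact p = 0.333, the smallest that 2 against 2 libraries can give).

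In the libraries labelled eds4 the LHCB1 genes were again the 5 members that passed, all lower in nuclei, against 29.6% of all loci (14% lower, 15.6% higher; 40.9% had an unadjusted p under 0.05). Their groups did not overlap, as for 32.1% of loci lower and 33.5% higher. LHCB1.3 stood at 32967 and 25724 CPM in total RNA and 3537 and 3510 in nuclei (-3.06, SE 0.39, edgeR adjusted p = 0.000597). The log2 difference was -2.67 for LHCB1.2 (SE 0.42), -2.57 for LHCB1.4 (SE 0.46), -2.42 for LHCB1.5 (SE 0.42) and -1.64 for LHCB1.1 (SE 0.43). LHCB1.1 did not pass without eds4 total RNA replicate 1 (-0.99) or without replicate 2 of the nuclei labelled eds4. The LHCB2 genes gave no separation of the groups. LHCB2.1 stood at 1056 and 189 CPM in total RNA and 457 and 120 in nuclei (-1.11, SE 0.80), LHCB2.2 at 807 and 172 against 489 and 181 (-0.55, SE 0.72), and LHCB2.3 at 237 and 74.9 against 232 and 77.2 (-0.01, SE 0.62). Their edgeR adjusted p were 0.331, 0.607 and 0.994. With LHCB2.1 and LHCB2.2 summed, the difference of nuclei from total RNA was -2.13 (SE 0.79, adjusted p = 0.0654) in wild type and -0.83 (SE 0.76, adjusted p = 0.449) in the libraries labelled eds4.

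Related genes were lower in nuclei too. Of the 13 other antenna genes, 12 were lower and 1 higher in nuclei under each genotype label, with medians of -2.23 for wild type and -2.13 for the libraries labelled eds4. LHCB4.1 (-2.55, SE 0.32) and LHCA2 (-2.40, SE 0.33) were among the lower ones in wild type; the higher one was LHCB7, a member of the family with low expression, which was named after its values were seen (1.34, SE 0.42). Among genes of chlorophyll metabolism 10 of 18 in wild type and 8 in the libraries labelled eds4 were lower, and 0 higher. Of the 8 import, phosphorylation and dissipation genes 6 and 4 were lower, among them PSBS, needed for heat dissipation (-3.25, SE 0.33 and -2.97, SE 0.33), and of the 6 light-harvesting-like genes 4 in each. Of 16 regulators, 1 was higher and 1 lower in wild type, and 7 higher and 1 lower in nuclei labelled eds4. LNK2 was higher in nuclei of wild type (2.24, SE 0.32) and in those labelled eds4 (3.47, SE 0.33), and CCA1 in those labelled eds4 (3.29, SE 0.63), while GUN1, a chloroplast signalling gene, was lower in both (-2.11, SE 0.27 and -1.80, SE 0.26).

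The files do not record from which cell types the sorted nuclei came. The mesophyll markers were lower in nuclei too: 6 of 7 passed under each genotype label, and their summed level was 54137 to 63533 CPM in wild type total RNA, 9706 to 16206 in wild type nuclei, 53426 to 66066 in eds4 total RNA and 7167 to 12363 in nuclei labelled eds4. The summed level of 6 guard cell markers was 2497 to 2613 CPM in wild type total RNA, 358 to 453 in wild type nuclei, 2123 to 2272 in eds4 total RNA and 283 to 369 in nuclei labelled eds4; 3 passed as lower in wild type and 2 in those labelled eds4. For 7 epidermis markers the sums were 1198 to 1277, 519 to 526, 1296 to 1622 and 686 to 756 CPM in the same order, with 5 and 3 lower. The xylem marker TED6 and the root hair markers RHD6 and RSL4 had 0 counts in all nuclear libraries. Lower markers numbered 3 and 4 of 5 for phloem, 3 and 5 of 6 for xylem and 2 and 2 of 4 for dividing cells; for endodermis and stele 1 and 1 of 6 were lower and 2 and 0 higher, and for root hair 0 passed. The part of cell mix in the nuclear result was not tested.

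In nuclei, eds4 against wild type gave 0 of 8 members past the threshold and 1 with an unadjusted edgeR p under 0.05 (LHCB1.4), against 0.363% (0.0512% lower, 0.312% higher) and 14.1% of all loci. LHCB2.2 stood at 158 and 59.7 CPM in wild type nuclei and 489 and 181 in the nuclei labelled eds4, and these groups did not overlap. Its log2 difference was 1.62 (SE 0.74, adjusted p = 0.361), with 19.6% of loci higher without overlap. LHCB2.1 stood at 149 and 65.5 against 457 and 120 CPM (1.43, SE 0.81) and LHCB2.3 at 135 and 58.6 against 232 and 77.2 (0.68, SE 0.62), both with overlap. The LHCB1 estimates had the opposite sign, from -1.06 (SE 0.44) for LHCB1.4 to -0.51 (SE 0.42) for LHCB1.1, and groups of LHCB1.2, LHCB1.3 and LHCB1.4 did not overlap (18.8% of loci were lower in that way). Outside the members, CPSRP43, an import chaperone of the antenna proteins, was the 1 gene of the pathway lists that passed (1.49, edgeR adjusted p = 0.042).

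The change of the nuclear-to-total ratio in the libraries labelled eds4 was tested as an interaction. For LHCB1 the estimates ran from -0.68 (SE 0.51, LHCB1.3) to -0.34 (SE 0.59, LHCB1.1), and for LHCB2 from 0.58 (SE 0.87, LHCB2.3) to 1.43 (SE 1.02, LHCB2.2). Of 8 members 0 passed in edgeR and 0 had an unadjusted p under 0.05; across all loci 0% passed and 5.83% had such a p.

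Replicates limited the LHCB2 values more than those of LHCB1. In the distribution experiment replicate 1 was above replicate 2 for LHCB2 in 12 of 12 pairs of gene and group, by 1.37 to 5.59 times. For LHCB1 it was above in 17 of 20 pairs, and the ratio ran from 0.923 to 2.18. All genes of a group were read from the same 2 libraries, so these pairs are not independent. The largest gap was that of LHCB2.1 in eds4 total RNA, 1056 against 189 CPM.

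LHCB1 counts exceeded LHCB2 counts by 40.7 and 79.3 times in wild type total RNA, 29.7 and 99.8 times in eds4 total RNA, and 37.9 and 53.1 times in wild type nuclei. In nuclei labelled eds4 they were 7.15 and 20.2 times LHCB2, below the other 6 libraries of that experiment. The log2 difference between nuclei labelled eds4 and wild type nuclei was -1.90 (exact p = 0.333, the smallest possible; adjusted p = 0.476).

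**Figure D5:**
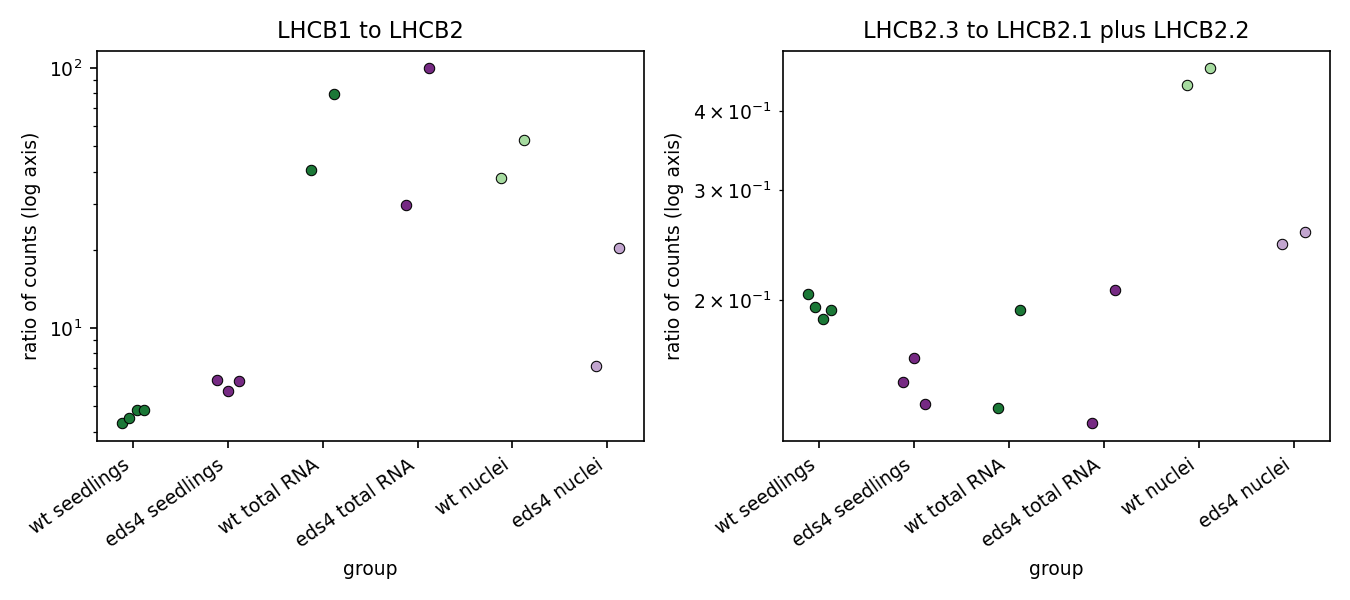
Ratio of summed LHCB1 to summed LHCB2 counts (left) and of LHCB2.3 to LHCB2.1 plus LHCB2.2 (right) in each library, on log axes; each point is 1 library. The left ratio is 4.31 to 6.33 in profiling seedlings and 29.7 to 99.8 in total RNA of the distribution experiment, and the right ratio is highest in wild type nuclei.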

How the data were processed

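The authors deposited 3 tables of whole-number read counts per locus, with coordinates. Per the submitters' processing notes, TopHat2 2.1.1, SAMtools 1.3 and TAIR10 were used; for the counter, strand setting and reads with several matches, nothing is given in the sources used here. Per the labels' protocols, polyadenylated RNA was sequenced from random-primed libraries. The tables list effective length in bases, used for CPM per kb, and 0 columns of other samples were present.

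Loci were tested with edgeR 4.0.16 in R 4.3.3 (filterByExpr, minimum count 10; TMM; quasi-likelihood F test; Benjamini-Hochberg over all loci; threshold 0.05), the 7 profiling, 8 distribution and 11 whole-seedling libraries each in 1 fit with a mean per group. SE was derived from the log2 difference and its F. DESeq2 1.42.0, other scaling and other choices were alternatives. Ratios of counts were compared by exact permutation. Named genes were all members, EDS4, up to 4 genes per list with the smallest adjusted p (all of lists with at most 6), the nearest loci, and the 5 loci most alike by Pearson r with an average log2 CPM of at least 1. Members and lists were chosen with earlier results of these data known.

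On simulated counts for the profiling fit (22047 loci), 77% of changes of 1 and 95% of changes of 2 on the log2 scale were recovered. For nuclei against total RNA in wild type (21093 loci) the shares were 7% and 50%. Of loci left unchanged, 14 passed in the profiling run and 7 in the nuclear run. Each size was given to 100 loci drawn at any level, whereas 30.6% of all loci passed in the data for nuclei against total RNA in wild type. The adjustment was therefore stricter in that simulation, and recovery at the members' levels was not tested. A chi-square test of counts set replicates of a group apart (11.1 to 115 per degree of freedom), so none was counted as a duplicate. Of 32835 nuclear loci matched to TAIR10.1 by locus tag, 32834 overlapped their reference locus on the same chromosome, so sequence was read from TAIR10.1 (RefSeq) by coordinates.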

Additional observations from a re-analysis of the deposited data

Results flagged for a closer look

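LHCB1.5 in wild type profiling replicate 3, at 3911 CPM, lay far from the other 3 libraries of its group (5189 to 5406 CPM): the gap was 0.855 of the group's range, above Dixon's critical value for 4 samples. It was 1 value marked in 11 sets of 4 values examined, and chance marks about 1 in 20 sets. All 11 sets came from the same 4 wild type profiling libraries, so they are not independent.

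LHCB2.2 had estimates of opposite sign: its mean was 801 CPM in eds4 against 1915 in wild type profiling seedlings, and 335 in nuclei labelled eds4 against 109 in wild type nuclei. The groups did not overlap in either, as for 6.93% of loci lower in profiling seedlings and 19.6% higher in nuclei. The nuclear difference did not pass (1.62, SE 0.74, edgeR adjusted p = 0.361), and in total RNA the groups overlapped (0.19, SE 0.72). The ratio of LHCB1 to LHCB2 counts likewise averaged 6.11 in eds4 against 4.63 in wild type profiling seedlings and 13.7 in nuclei labelled eds4 against 45.5 in wild type nuclei. These differences between profiling seedlings and nuclei were not tested.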

How the results depend on the processing

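Of 7 members that passed in profiling seedlings, between 1 and 7 passed when libraries were left out, and 1 in the fit of 11 whole-seedling libraries with a term for experiment; LHCB1.2 passed in all 7 fits without a library. LHCB1.3 passed with DESeq2, the replicate block and a term for replicates 1 and 2 against 3 and 4. In these fits 1037, 414 and 868 of 22202 loci passed, against 297 in the main fit. All 128 alternative values of this comparison kept their direction. In nuclei, eds4 against wild type, 1 member passed with DESeq2 (LHCB1.3), 2 with no filter on low counts (LHCB2.1 and LHCB2.2) and 1 with the replicate block (LHCB2.2). Over all loci 860, 1167 and 248 passed in these fits, against 78 in the main fit. For the genotype effect between experiments 1 member passed with DESeq2 (LHCB1.2), where 208 loci passed against 2 in the main fit. For nuclei against total RNA 4 to 7 members passed without a library in wild type and 4 to 5 in eds4; where an arm kept 1 library, its spread was taken from the other groups. The effect of depth was not tested.

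Over all loci the number passing in profiling seedlings was 297 and ran from 42 to 1037 over the alternatives; for nuclei against total RNA it was 6582 (3418 to 7651) in wild type and 6357 (3729 to 7397) in eds4, for eds4 against wild type 1 (1 to 95) in total RNA and 78 (1 to 1167) in nuclei, for the interaction 0 (0 to 226), and for the genotype effect between experiments 2 (2 to 208).

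The labels do not say that replicate numbers pair samples. Correlations of same-numbered deviations were 0.395, -0.09 and 0.378 in the profiling experiment, not all over 0.1. In the distribution experiment, with 2 libraries per group, they were positive in 5 of 6 pairs of groups (0.129, 0.0935, 0.105, 0.0299 and 0.238) and -0.03 for nuclei with total RNA labelled eds4. The block is therefore not taken as part of the design. With the block 8 members passed in profiling seedlings, among 414 of 22202 loci (297 in the main fit). For nuclei against total RNA in wild type 7 passed, among 7323 of 21484 loci (6582 in the main fit). With the replicate block the LHCB2.3 difference of nuclei from total RNA in eds4 became 0.0022, and those of eds4 from wild type in total RNA became -0.10 (LHCB2.1), -0.11 (LHCB2.2) and -0.15 (LHCB2.3).

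Leaving out 1 library at a time, log2 differences that changed sign ran as follows, from lowest to highest. For nuclei against total RNA in eds4, -2.40 to 0.60 (LHCB2.1), -1.45 to 0.95 (LHCB2.2) and -1.03 to 1.04 (LHCB2.3). For eds4 against wild type in total RNA, -0.84 to 0.29 (LHCB1.1), -0.48 to 0.0405 (LHCB1.2), -0.30 to 0.0614 (LHCB1.3), -0.49 to 0.22 (LHCB1.5), -1.46 to 1.02 (LHCB2.1), -1.32 to 0.91 (LHCB2.2) and -0.97 to 0.70 (LHCB2.3). For eds4 against wild type in nuclei, -0.33 to 1.41 (LHCB2.3). For the interaction, -0.79 to 0.33 (LHCB1.1), -1.16 to 0.0412 (LHCB1.2), -0.998 to 0.22 (LHCB1.4), -0.91 to 0.0836 (LHCB1.5), -0.10 to 2.89 (LHCB2.1) and -0.42 to 1.65 (LHCB2.3). For the genotype effect between experiments, -0.78 to 0.0448 (LHCB1.4), -2.17 to 0.34 (LHCB2.1) and -2.21 to 0.0472 (LHCB2.2). The causes were not tested.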
